A study of Mus musculus with 6 samples.

Results

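The glutathione, peroxiredoxin and thioredoxin enzymes are 45 genes picked by symbol from the 27378 genes listed for each library. They comprise 18 glutathione S-transferases, 5 glutathione peroxidases, 6 peroxiredoxins, 5 thioredoxins and thioredoxin reductases, 4 glutaredoxins, glutathione synthetase and reductase, catalase with 2 superoxide dismutases, and 2 methionine sulfoxide reductases. All 45 symbols were present, and 43 reached the mean of 1 FPKM (fragments per length of gene and per library size) needed for testing. RNA was sequenced from whole brains of male C57BL/6J mice of wild-type genotype. The control group (3 libraries) received sterile distilled water intranasally for 28 days, and the PS group (3 libraries) received polystyrene nanoplastics by the same route for 28 days. No source used here gives the animals' age, and none says whether each library came from its own animal, so p-values measure the spread between these libraries, which may be technical. No gene is deleted or added in either group, so no member serves as a check of the labels.

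Cells remove peroxides along a pair of thiol relays that both draw electrons from NADPH. Glutathione reductase keeps glutathione reduced for most glutathione peroxidases, the transferases and most glutaredoxins. Thioredoxin reductase keeps thioredoxin reduced for most peroxiredoxins and for methionine sulfoxide reductases. Several of these genes are textbook targets of the transcription factor Nrf2 (Nfe2l2), which binds antioxidant response elements. In brain much of the glutathione supply rests on astrocytes, and the membrane lipids of neurons and myelin are known substrates of peroxidation.

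The start-site regions of the family are shown first because the antioxidant response element is the best known sequence shared by such genes. The core TGACNNNGC was searched on both strands in windows from 250 bases before to 50 bases after each RefSeq gene start (build GRCm38.p6). Of the 45 genes, 39 matched the table, with 57 start windows, and 5 of the 39 (12.8%) held the core, beside 3781 of 27025 genes (14%) in the whole table. Counted by window, 8.77% of the members' windows and 12.4% of all windows held it. The 5 stretches follow with the core in capitals, 20 bases on either side, read 5′ to 3′ on the strand of the gene. In Prdx1, Mgst1 and Txnrd1 the core lies on the opposite strand and so appears as its reverse complement.
Gstm5, chr3:107895792-107895840, plus strand: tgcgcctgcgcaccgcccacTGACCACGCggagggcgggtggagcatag
Gstm7, chr3:107931715-107931763, minus strand: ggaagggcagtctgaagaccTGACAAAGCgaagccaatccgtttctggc
Prdx1, chr4:116685446-116685494, plus strand: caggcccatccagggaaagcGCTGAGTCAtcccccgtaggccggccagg
Mgst1, chr6:138140451-138140499, plus strand: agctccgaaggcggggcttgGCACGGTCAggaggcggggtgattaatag
Txnrd1, chr10:82859094-82859142, plus strand: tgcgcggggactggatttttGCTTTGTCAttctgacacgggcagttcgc
The first capital as printed lies 42 bases before the gene start in Gstm5, 129 in Gstm7, 133 in Prdx1, 56 in Mgst1 and 92 in Txnrd1. Read on its own strand the match is TGACTCAGC in Prdx1, the only 1 of the 5 that contains the AP-1 motif TGACTCA, and TGACAAAGC in both Gstm7 and Txnrd1. A match is a description of the letters and not a shown binding site.

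The next windows, each the 250 bases before a gene start, belong to the tested members with an unadjusted p under 0.05 or with groups that did not overlap, as far as they have a RefSeq entry. Txnrd1 has 3 such starts in the table, and the window printed is the 1 that holds the core, in capitals. Gpx8 and Gss have 1 start each, and neither window holds the core.
Gpx8, chr13:113046389-113046638, minus strand: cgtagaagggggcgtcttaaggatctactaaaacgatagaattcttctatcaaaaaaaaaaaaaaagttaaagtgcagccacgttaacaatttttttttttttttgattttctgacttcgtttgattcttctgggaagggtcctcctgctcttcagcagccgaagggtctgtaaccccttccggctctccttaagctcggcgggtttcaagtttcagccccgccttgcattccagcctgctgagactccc
Gss, chr2:155592811-155593060, minus strand: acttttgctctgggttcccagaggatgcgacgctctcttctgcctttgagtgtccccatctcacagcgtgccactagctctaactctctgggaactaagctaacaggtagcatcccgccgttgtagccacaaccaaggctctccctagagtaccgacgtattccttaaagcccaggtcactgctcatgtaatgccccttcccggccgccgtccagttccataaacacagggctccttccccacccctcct
Txnrd1, chr10:82858956-82859205, plus strand: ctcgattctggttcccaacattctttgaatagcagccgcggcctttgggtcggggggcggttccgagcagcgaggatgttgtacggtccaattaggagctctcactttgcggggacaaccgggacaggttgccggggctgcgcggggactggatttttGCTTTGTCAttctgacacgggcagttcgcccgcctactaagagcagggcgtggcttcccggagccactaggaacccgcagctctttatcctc
The members without an entry in the table are Gsta4, Gstt2, Prdx6, Gsr, Sod3 and Msra.

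In these brains the enzymes' levels ran from the most abundant, Gpx4, down to Gsto2 and Mgst2, which were near the limit of detection. The 45 genes together summed to 1806, 1587 and 1885 FPKM in control libraries 1 to 3 and to 1716, 1854 and 1841 FPKM in PS libraries 1 to 3. Control 2 was the lowest of the 6, and the control and PS sums overlapped. Since FPKM is scaled per kilobase, levels can be compared between genes. Peroxiredoxins made up 28.1% of the sum on average over the 6 libraries, the alpha, mu and pi transferases 26.48%, and the glutathione peroxidases 16.92%. Thioredoxins and their reductases followed at 8.266%, glutaredoxins at 5.969%, the kappa and membrane-bound transferases at 5.233%, and catalase with the superoxide dismutases at 4.086%. The smallest shares were those of the theta, omega and zeta transferases (2.574%), the methionine sulfoxide reductases (1.268%) and the pair Gss and Gsr (1.111%). Over the 6 libraries the share of the peroxiredoxins ran from 27.65% to 28.34% and that of the alpha, mu and pi transferases from 25.51% to 27.07%. Relative to their size, the shares of some smaller families ranged more widely. The thioredoxins and reductases held 7.948% to 9.062%, the theta, omega and zeta transferases 2.401% to 2.894%, and Gss with Gsr 1.024% to 1.227%. A share also moves with the total, which was lowest in control 2. In summed FPKM the thioredoxins and reductases ran from 140.5 to 153.2, and the peroxiredoxins from 438.8 to 529.7.

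**Figure D1:**
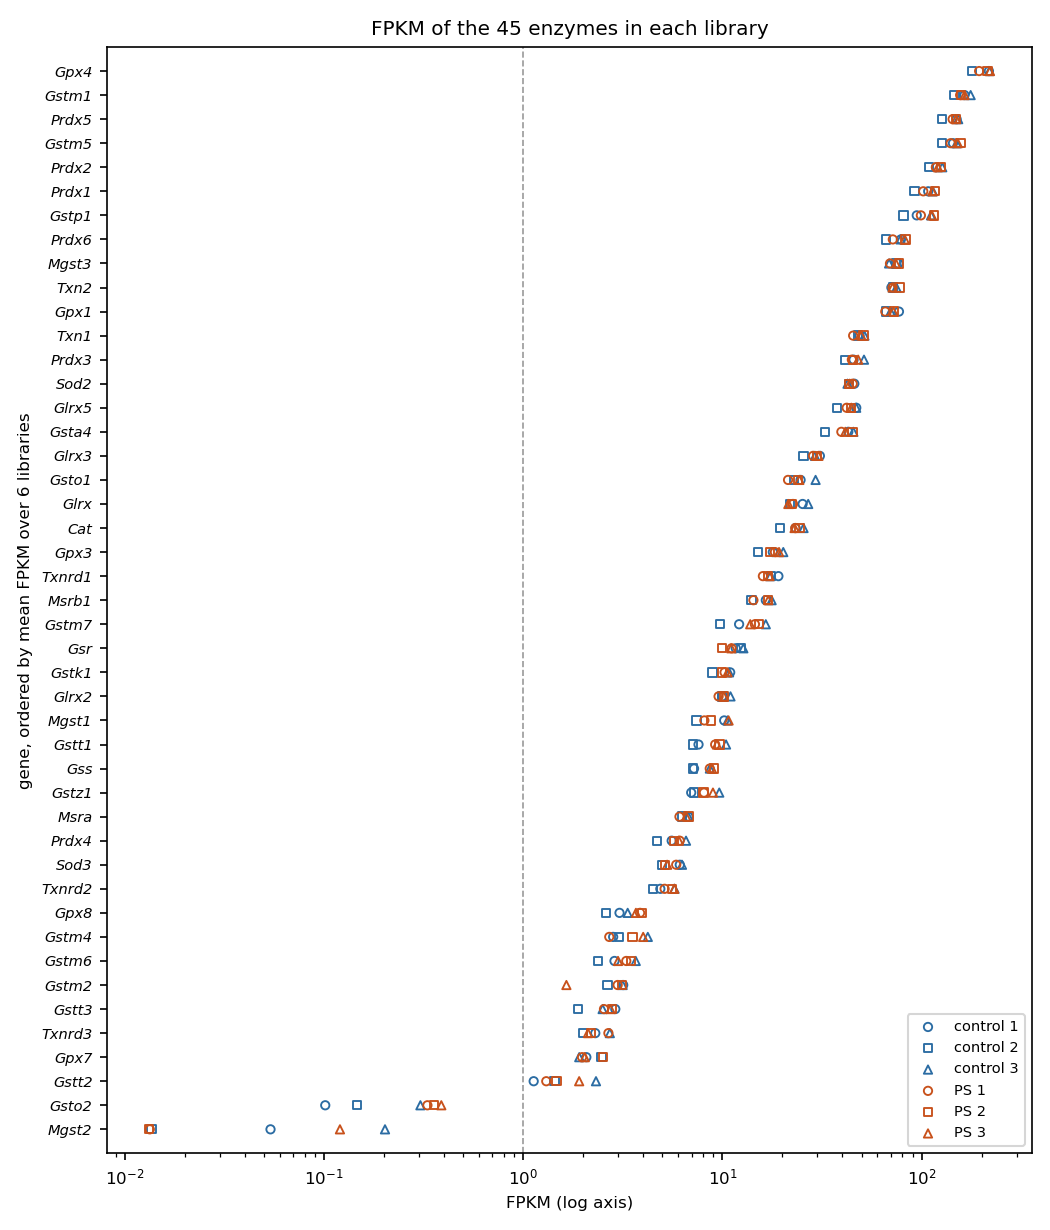
Levels of the 45 enzymes in FPKM on a log axis, 1 row per gene ordered by the mean of the 6 libraries, with control in blue and PS in orange and a symbol for each replicate; the dashed line marks 1 FPKM. Gpx4 lies highest at 178.7 to 220.3 FPKM, Gsto2 and Mgst2 lie under 1 FPKM, and for most genes the points of both groups overlap.

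None of the 43 tested enzymes differed between PS and control after adjustment over all 12229 tested genes (limma, adjusted p under 0.05), where 20 genes passed (0.164%). In a fit blocked on replicate number 48 genes passed and again no member did, and in a fit with a weight per library 632 passed (5.17%), 2 members among them (Gss and Gpx8), with most of the weight of the controls on control 1. At an unadjusted p under 0.05 there were 3 members (6.98%), Gpx8 and Gss with higher values in PS and Gsr with lower ones. The share among all tested genes was 5.94%, so 3 is near the background. The libraries of the groups did not overlap for 3 of the 43 tested members (6.98%), Gpx8 higher in PS, and Gsr and Txnrd1 lower, against 11.3% of all tested genes. The median log2 fold change of the members, which is PS over control after taking log2(FPKM + 1), was 0.020, with a range from -0.180 to 0.276, and that of all tested genes was 0.003. Adding 1 before the log understates the fold of genes at low FPKM; for Gpx8 the value 0.28 becomes 0.35 when 0.1 is added instead. Positive values stood for 28 members and negative ones for 15, while 51.4% of all tested genes were positive. The log2 fold change was under 0.1 in size for 30 members (69.8%, against 73.8% of all tested genes). The 95% interval of the difference stayed within 0.5 of 0 for 41 members (95.3%, against 95.9%). The exceptions were Gstm2 (-0.54 to 0.18) and Gstm7 (-0.14 to 0.54). For 25 members the interval stayed within 0.3 (58.1%), a smaller share than the 73.1% of all tested genes.

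**Figure D2:**
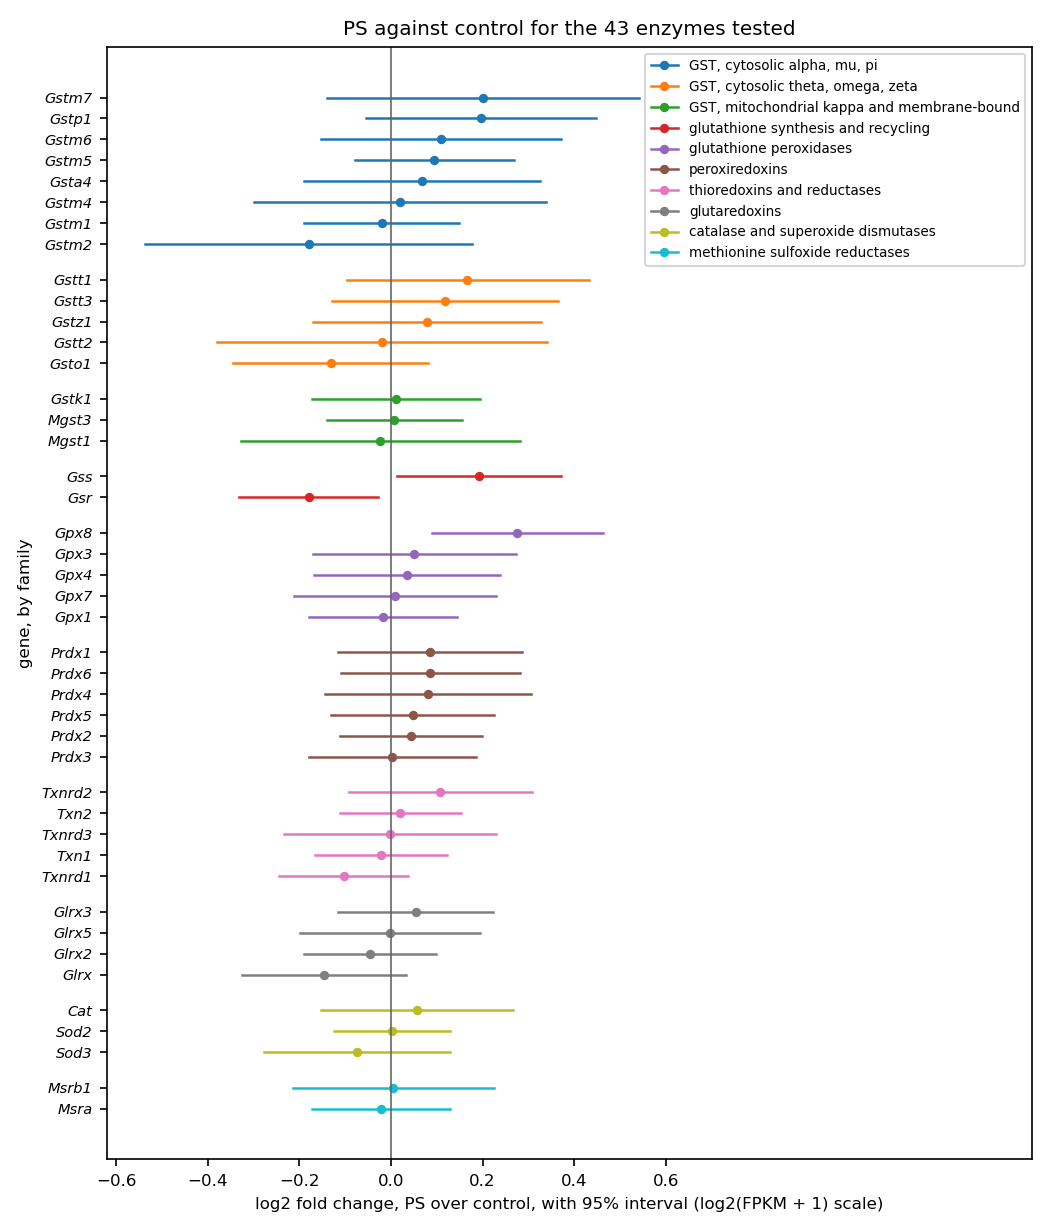
Log2 fold changes of the 43 tested enzymes, computed from log2(FPKM + 1) as PS minus control, with bars for the 95% interval, 1 row per gene and 1 colour per family. The bars of Gpx8, Gss and Gsr alone leave out 0, and none of the 3 passed the adjusted test.

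Beside these counts stands a pattern among the control libraries. Control 2 held the lowest value for 27 of the 43 enzymes (62.8%), compared with 30% of all tested genes, and control 3 held the highest value for 23 (53.5%), compared with 23%. The median enzyme lay -0.177 log2 units from its own 6-library mean in control 2 and 0.113 in control 3. In PS 1 to 3 the same median was -0.039, 0.050 and 0.034, and in control 1 it was 0.012. A total of 39 of 43 members were below their mean in control 2. The replicates of a group therefore spread more in control than in PS for this family. The median coefficient of variation over members was 11.4% in control and 5.42% in PS, and 6.18% in control without replicate 2 (8.11%, 5.45% and 5.66% over all tested genes). Without control 2 the members' median log2 fold change was -0.045 and 12 of 43 were positive, so the larger number of positive values depends on that library. Without control 3 the median was 0.083 with 31 positive.

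Gene length moved with the same library. The members are short, with a median length of 1445 bases (recovered from the FPKM steps) against 3686 for all tested genes. In control 2 the median deviation was -0.127 for the 669 tested genes under 1000 bases, -0.085 for the 1985 genes of 1000 to under 2000, -0.031 for the 3993 genes of 2000 to under 4000, and 0.038 for the 5582 longer ones. Control 3 ran the other way, from 0.063 in the shortest class to -0.031 in the longest. The members' own shifts in both libraries were larger than that of their length class, and the part that length plays in the results below was not tested.

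**Figure D3:**
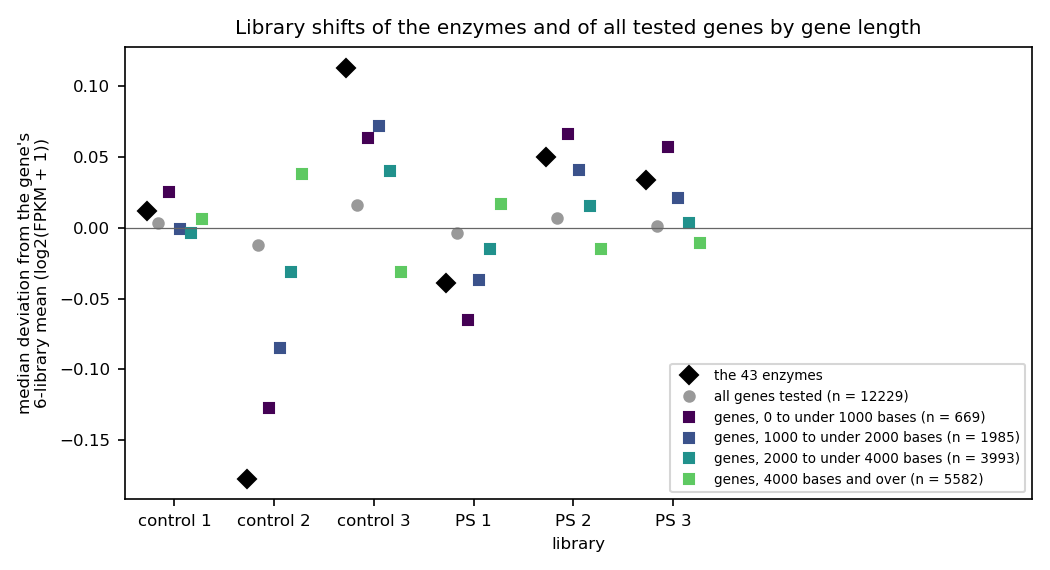
Median deviation of a gene's log2(FPKM + 1) from its own 6-library mean, per library, for the 43 enzymes (diamonds), all tested genes (circles) and tested genes in 4 classes of length (squares). In control 2 the enzymes lie at -0.177 and in control 3 at 0.113, and the shortest gene class is shifted in the same directions.

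Gss and Gsr make and recycle the common substrate, glutathione. Gss, glutathione synthetase, which adds glycine in the last step of synthesis, measured 7.205, 7.096 and 8.652 FPKM in control 1 to 3 and 8.641, 9.063 and 8.859 in PS 1 to 3. Its log2 fold change was 0.19 (SE 0.079, n = 3 per group), with adjusted p = 0.817 (limma). Control 3 overlapped the PS libraries and the other 2 controls were lower. Gsr, glutathione reductase, which returns oxidised glutathione to its reduced form, had 11.67, 12.37 and 12.74 FPKM in control and 11.12, 9.928 and 11.08 in PS. Here the log2 fold change was -0.18 (SE 0.067), with adjusted p = 0.752 (limma). All 3 PS libraries lay below all 3 controls, and control 2 was not the extreme library. The pair thus stood on opposite sides of 0. The ratio of Gsr to Gss, formed after their values were seen and given without a test, was 1.62, 1.743 and 1.472 in control and 1.286, 1.095 and 1.251 in PS. In the annotated transcripts 10.3% of the 50-base words of Gss also occur in another of 3 genes, 4.15% in Acss2, whose exons overlap it on the opposite strand, so part of its reads could be split between them.

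Most glutathione peroxidases reduce hydrogen peroxide or lipid peroxides with glutathione, whereas Gpx7 and Gpx8 use it poorly. The lowest p of all tested members was that of Gpx8, a peroxidase of the endoplasmic reticulum with cysteine in place of selenocysteine. It measured 3.045, 2.614 and 3.346 FPKM in control and 3.861, 3.959 and 3.68 in PS, with means of 3.002 ± 0.368 and 3.834 ± 0.142 (SD, n = 3 each). Every PS library was above every control. The log2 fold change was 0.28 (SE 0.083, 95% interval 0.09 to 0.46), with adjusted p = 0.565 (limma). The gene rests on 140 to 218 reads per library, for which counting alone gives a coefficient of variation of 7.33%. Gpx4, the selenoenzyme that repairs lipid peroxides in membranes and holds back ferroptosis, was the most abundant member at 217.6, 178.7 and 218.8 FPKM in control and 194.4, 214.1 and 220.3 in PS. Its groups overlapped, with a log2 fold change of 0.04 (SE 0.090, adjusted p = 0.993, limma). A caution applies to its level, since 34.7% of its 50-base words recur in the annotated copy Gpx4-ps2. Gpx1, the cytosolic selenoenzyme, averaged 71.09 ± 5.35 FPKM in control and 70.18 ± 3.88 in PS. Gpx3, which is secreted, averaged 17.73 ± 2.57 and 18.29 ± 0.98, and Gpx7, the relative of Gpx8 in the endoplasmic reticulum, 2.155 ± 0.291 and 2.175 ± 0.293 (SD, n = 3). The log2 fold changes of these 3 ran from -0.02 to 0.05 and all 3 had overlapping groups.

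**Figure D4:**
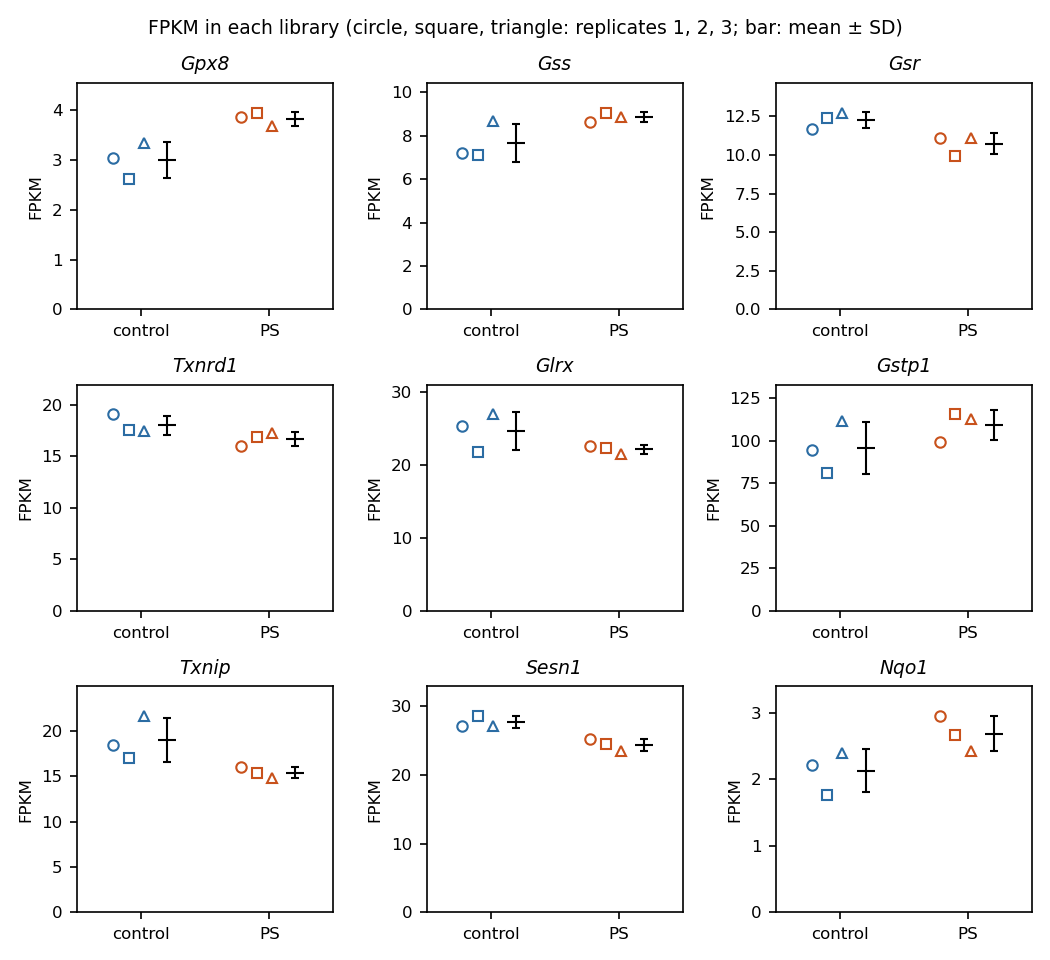
FPKM in each library for 6 of the enzymes and for Txnip, Sesn1 and Nqo1 of the wider pathway, with the mean and SD of 3 libraries beside the points and every axis starting at 0. All PS points of Gpx8 and Nqo1 lie above the control points, and those of Gsr, Txnrd1, Txnip and Sesn1 lie below them; none of these genes passed the adjusted test.

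The 6 peroxiredoxins, which reduce peroxides through a reactive cysteine, all had small positive log2 fold changes, from 0.003 for Prdx3 (negative after quantile normalization) to 0.085 for Prdx1 and Prdx6, and none had an unadjusted p under 0.05. All 6 were also lowest in control 2, and without that library only Prdx6 was still positive, 1 of 6. Prdx5, which works in mitochondria, peroxisomes and cytosol, was the most abundant at 149.8, 126.1 and 152.6 FPKM in control and 143.1, 149.3 and 149.1 in PS. Its annotated exons overlap Trmt112 on the opposite strand over 19.1% of their length. Prdx6, the 1-cysteine member that takes its electrons from glutathione, measured 78.69, 66.22 and 78.34 FPKM in control and 71.68, 82.88 and 82.28 in PS (log2 fold change 0.09, SE 0.086, adjusted p = 0.975, limma). Both genes show a low control 2 and overlapping groups. Prdx2, which is also abundant in red cells, averaged 117.8 ± 9.16 and 121.3 ± 3.63 FPKM, and the cytosolic Prdx1 104.6 ± 11.4 and 110.7 ± 7.85. The mitochondrial Prdx3 averaged 46.05 ± 5.08 and 45.99 ± 1.79 FPKM, and Prdx4 of the endoplasmic reticulum 5.615 ± 0.928 and 5.954 ± 0.211 (SD, n = 3). The 5 red cell markers summed to 127.4 to 196.4 FPKM in control and 56.72 to 99.49 in PS, while Prdx2 ran from 108.6 to 126.9 and from 118 to 125.2. In a bulk sample fewer cells of a type and less RNA per cell cannot be told apart.

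Thioredoxins pass electrons from NADPH, through the thioredoxin reductases, to the peroxiredoxins. Txnrd1, the cytosolic reductase and a selenoprotein, measured 19.1, 17.53 and 17.43 FPKM in control and 15.97, 16.88 and 17.24 in PS. All PS libraries were below all controls, but by a narrow margin between control 3 and PS 3. The log2 fold change was -0.10 (SE 0.062, 95% interval -0.25 to 0.04), with adjusted p = 0.918 (limma). Txnrd1 and Gsr are the 2 tested members (4.65%) with lower PS values and no overlap, a smaller share than the 6.33% of all tested genes with that order. Txn2, the mitochondrial thioredoxin, had 70.51, 71.94 and 74.73 FPKM in control and 71.45, 77.53 and 71.44 in PS, with overlapping groups. Txn1, the cytosolic thioredoxin, averaged 49.43 ± 1.98 and 48.7 ± 2.99 FPKM (SD, n = 3). The mitochondrial reductase Txnrd2 averaged 5.032 ± 0.654 and 5.481 ± 0.316, and Txnrd3, a reductase that also carries a glutaredoxin domain, 2.339 ± 0.365 and 2.329 ± 0.305. In log2 fold change these 3 ran from -0.02 to 0.11.

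Glutaredoxins undo mixed disulfides between proteins and glutathione or carry iron-sulfur clusters. Glrx, the cytosolic enzyme, had 25.27, 21.82 and 26.96 FPKM in control and 22.61, 22.35 and 21.43 in PS. Controls 1 and 3 were above all PS libraries and control 2 lay among them, which gave a log2 fold change of -0.15 (SE 0.079), with adjusted p = 0.879 (limma). Glrx5, needed for iron-sulfur cluster assembly in mitochondria, measured 46.97, 37.72 and 46.94 FPKM in control and 42.06, 44.34 and 44.37 in PS. Its PS values sit between the low control 2 and the other controls, and its log2 fold change was -0.003. Glrx3, an iron-handling protein of the cytosol, averaged 28.51 ± 2.72 and 29.56 ± 0.92 FPKM, and the mitochondrial Glrx2 10.32 ± 0.57 and 9.961 ± 0.340 (SD, n = 3).

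The glutathione S-transferases join glutathione to electrophiles, lipid aldehydes among them, and 18 of the 45 members belong to this class. None of the 16 tested reached an unadjusted p under 0.05. In the alpha, mu and pi classes the most abundant gene was Gstm1, at 164.1, 146.1 and 176.2 FPKM in control and 156.1, 157.9 and 164.4 in PS. Control 2 and control 3 bracket all PS libraries, and the log2 fold change was -0.02 (SE 0.074). The lowest p of these classes belonged to Gstp1, the pi enzyme, with 94.54, 81.15 and 111.5 FPKM in control and 99.14, 115.7 and 112.6 in PS. The log2 fold change was 0.20 (SE 0.111, 95% interval -0.06 to 0.45, adjusted p = 0.891, limma), and control 3 overlapped the PS range. Of its 50-base words 33.7% recur in Gstp2, so the value may hold reads of both. Gstm5 averaged 140.1 ± 11.8 and 149.6 ± 8.72 FPKM, and Gsta4, which favours the lipid aldehyde 4-hydroxynonenal, 40.32 ± 6.75 and 41.97 ± 2.74 (SD, n = 3).

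The other mu genes were far lower than Gstm1 and Gstm5. Gstm7 averaged 12.78 ± 3.45 FPKM in control and 14.52 ± 0.71 in PS, Gstm4 3.362 ± 0.752 and 3.415 ± 0.658, and Gstm6 2.971 ± 0.659 and 3.251 ± 0.240 (SD, n = 3). Gstm7 had the widest control range of the 3 in FPKM, from 9.695 in control 2 to 16.51 in control 3. For Gstm2 a single PS library stood apart: 3.177, 2.645 and 3.157 FPKM in control, then 2.98, 3.126 and 1.648 in PS, the last resting on 68 reads. The mu genes are close relatives, and reads may be split where sequences match, though few long stretches are shared by these 4. Of the 50-base words, 5.97% recur in another gene for Gstm6, 5.65% for Gstm2, 0.532% for Gstm7 and 0% for Gstm4. For Gstm1 the share is 18.9%, mostly with Gstm2-ps1 (14.1%), and for Gstm5 it is 9.44%, with 4933431E20Rik.

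Among the theta, omega and zeta transferases, Gsto1, the omega enzyme, had 24.68, 22.89 and 29.36 FPKM in control and 21.36, 24.03 and 24.33 in PS, with a log2 fold change of -0.13 (SE 0.094, adjusted p = 0.946, limma). Gstt1, a theta enzyme, measured 7.588, 7.138 and 10.43 FPKM in control and 9.198, 9.675 and 9.386 in PS, with a log2 fold change of 0.17 (SE 0.117, adjusted p = 0.945, limma). In both genes control 3 was the highest of the 6 and the groups overlapped. Gstz1, which also serves tyrosine breakdown, averaged 7.931 ± 1.49 and 8.359 ± 0.525 FPKM. Gstt3 averaged 2.429 ± 0.512 and 2.693 ± 0.129, and Gstt2 1.628 ± 0.618 and 1.561 ± 0.313 (SD, n = 3). Gsto2 stayed under the level needed for testing, with 7, 10 and 21 reads in control and 23, 25 and 27 in PS. Every PS library was above every control, and the sums were 38 reads in control and 75 in PS, a ratio of mean FPKM of 1.945. The exact 95% Poisson intervals, which cover counting error only, run from 13 to 32.1 reads for control 3 and from 14.6 to 34.5 for PS 1, so the intervals of this closest pair overlap. When all genes above 0 were fitted, Gsto2 did not pass the test (adjusted p = 0.83, limma), with a difference of 0.20 in log2(FPKM + 1), a scale that understates its fold at such low values.

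The kappa and membrane-bound transferases sit in mitochondria, peroxisomes or microsomal membranes. Mgst3 was the most abundant, with 76.34, 74.57 and 68.66 FPKM in control and 69.38, 77.07 and 74.24 in PS. Unlike most members it was lowest in control 3, and its log2 fold change was 0.01 (SE 0.065). Mgst1 measured 10.21, 7.413 and 10.62 FPKM in control and 8.119, 8.764 and 10.74 in PS (log2 fold change -0.02, SE 0.135), with a wide range inside both groups. Gstk1 averaged 10.23 ± 1.12 and 10.27 ± 0.34 FPKM (SD, n = 3). Mgst2, known for leukotriene C4 synthesis, was under the level needed for testing, with 4, 1 and 15 reads in control and 1, 1 and 9 in PS. No difference in Mgst2 is detectable at that depth.

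The 3 enzymes that dispose of superoxide or hydrogen peroxide without thiols had no unadjusted p under 0.05. Sod2, the manganese enzyme of the mitochondrial matrix, had 45.94, 43.24 and 42.47 FPKM in control and 45.09, 43.11 and 43.55 in PS, with a log2 fold change of 0.002 (SE 0.056, 95% interval -0.13 to 0.13). Sod3, the secreted enzyme, measured 6.11, 4.985 and 6.268 FPKM in control and 5.863, 5.14 and 5.279 in PS, with a log2 fold change of -0.08 (SE 0.090, adjusted p = 0.979, limma). For all 3 the groups overlap. Cat, the peroxisomal catalase, averaged 22.74 ± 3.11 and 23.56 ± 0.76 FPKM (SD, n = 3).

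Methionine sulfoxide reductases repair oxidised methionine in proteins. Msrb1, a selenoprotein, had 16.52, 13.98 and 17.66 FPKM in control and 14.31, 16.94 and 17 in PS, and Msra 6.747, 6.293 and 6.746 in control and 6.089, 6.769 and 6.585 in PS. Both groups overlapped for each gene, with log2 fold changes of 0.005 (SE 0.097) and -0.02 (SE 0.066).

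Sorted by place or chemistry instead of family, the tested members gave like values. The 7 enzymes of the mitochondrial matrix had a median log2 fold change of 0.003, the 7 selenoproteins 0.005, and the 5 enzymes that are secreted or lie in the secretory pathway 0.051. Within that last class Gpx8 is the highest value (0.276) and Sod3 the lowest (-0.075).

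The wider pathway was read from 59 further genes for glutathione supply and breakdown, NADPH supply, thioredoxin and peroxiredoxin regulation, selenoprotein synthesis, Nrf2 signalling, and relatives of thioredoxin listed together with glyoxalase genes, of which 57 were tested. No gene of this list passed the adjusted test. An unadjusted p under 0.05 was reached by 4 (7.02%, against 5.94% of all tested genes), 2 in each direction, and the groups did not overlap for 7 (12.3%, against 11.3%). The median log2 fold change of the 57 was 0.014. Txnip, which binds and inhibits thioredoxin, had 18.45, 17.01 and 21.72 FPKM in control and 16.03, 15.39 and 14.88 in PS (-0.28 in log2 fold change, adjusted p = 0.57, limma). Sesn1, a stress-inducible sestrin, had 27.18, 28.65 and 27.17 FPKM in control and 25.22, 24.47 and 23.43 in PS (-0.18, adjusted p = 0.631, limma). In both genes every PS library was below every control.

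On the other side stood Cth and Nqo1. Cth, the lyase that makes cysteine for glutathione, measured 1.856, 1.387 and 1.734 FPKM in control and 1.895, 2.317 and 2.473 in PS (0.28 in log2 fold change, adjusted p = 0.717, limma, and 0.43 by limma-voom on the recovered reads, at a ratio of mean FPKM of 1.343). Nqo1, a quinone reductase and common readout of Nrf2, measured 2.217, 1.771 and 2.394 FPKM in control and 2.958, 2.663 and 2.43 in PS (0.24, adjusted p = 0.801, limma). For each of them every PS library exceeded every control, by a small step between control 3 and a PS library in Nqo1 and between control 1 and PS 1 in Cth. Bach1, a repressor at antioxidant response elements, had 3.009, 3.424 and 3.052 FPKM in control and 2.924, 2.719 and 2.696 in PS, and Mafg, a small Maf partner of Nrf2, 7.559, 8.191 and 6.485 in control and 6.643, 6.243 and 6.652 in PS. Both had an adjusted p of 0.868 (limma), with log2 fold changes of -0.14 and -0.16.

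Further genes of the pathway list, 3 in number, are given although the naming rule does not reach them, chosen after their values were seen. Gclc, the catalytic subunit of the first and limiting step of glutathione synthesis, measured 20.34, 20.02 and 20.96 FPKM in control and 19.22, 19.07 and 19.5 in PS. Its groups did not overlap, yet the log2 fold change was only -0.08 (adjusted p = 0.939, limma). Slc3a2, the partner chain of the cystine transporter, showed the same order, with 12.17, 12.65 and 12.63 FPKM in control and 11.79, 11.86 and 11.78 in PS (-0.07, adjusted p = 0.95, limma). Hmox1, another well known Nrf2 target, had 3.421, 2.555 and 3.698 FPKM in control and 3.107, 3.115 and 3.029 in PS, with overlapping groups and a log2 fold change of -0.04. The 5 members whose start windows hold the antioxidant core had log2 fold changes of 0.10 (Gstm5), 0.20 (Gstm7), 0.09 (Prdx1), -0.02 (Mgst1) and -0.10 (Txnrd1), on both sides of 0.

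The genes of the cell type lists were all above 0 in each library, which at this depth is only a weak check of the tissue label. Several lists moved between libraries beside the enzymes. The 8 oligodendrocyte markers summed to 1520, 1151 and 1655 FPKM in control and 1693, 1582 and 1778 in PS, with control 2 lowest, as for most enzymes. Astrocyte markers summed to 884.9 to 1050 in control, again lowest in control 2, and to 941.3 to 1055 in PS. The 7 markers of oligodendrocyte precursors summed to 53.94 to 58.65 in control and 64.11 to 64.9 in PS, and the 8 endothelial markers, 1 of which passed the adjusted test, to 75.14 to 87.13 and 67.06 to 74.25. Neither of these lists overlapped between the groups, as with the red cell markers given beside Prdx2. No precursor or red cell marker passed the adjusted test. The sums, which lean on the most abundant genes of a list, were not tested. Summed levels of the neuron list were 2165 to 2224 in control and 2087 to 2253 in PS, those of microglia 188.8 to 204.7 and 173.8 to 210.2, and those of choroid plexus 771.8 to 1321 and 946.8 to 1566. Ependymal markers summed to 13 to 25.23 and 20.78 to 24.01, and meningeal fibroblast markers to 41.75 to 46.94 and 45.27 to 55.43. Control 2 also held the lowest sum of the choroid plexus (771.8), ependymal (13) and oligodendrocyte precursor (53.94) lists. It held the highest sum of the endothelial list (87.13), and the lowest of no further list. The part of cell makeup in the enzymes' values was not tested.

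Depth was even, with 39239183 to 40335590 reads per library and 22153 to 22698 genes above 0. Control 2 stood apart on the first principal component over all tested genes, at -17.46 with the other libraries at -2.927 to 8.207. Each of the 43 tested enzymes rested on at least 68 reads in every library, and for all 43 the spread between control libraries exceeded the spread from counting, as it did for 36 between PS libraries.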

How the data were processed

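Whole-brain RNA was extracted with TRIzol and built into libraries (VAHTS Universal V6 kit), as the labels' protocols state. For each library the authors deposited FPKM values in 1 table, named fastp, HISAT2, HTSeq, R 3.2.0 and the build GRCm39 in the submitters' processing notes, and gave no order, strand setting or options there. Overlapping, antisense and near-identical genes are therefore uncertain. Library totals were recovered from the FPKM steps of 12 mitochondrial genes of known length. For each gene the smallest length that gave whole reads within 0.02 in every library was then taken. Such a length was found for 99.99% of 26556 genes. It is easily found for a gene above 0 in few libraries, so that share is a weak check.

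The 12229 of 27378 genes whose mean FPKM reached 1 were compared on log2(FPKM + 1) with limma 3.58.1 in R 4.3.3 (two-sided, group as the sole term, variance trend, 4 residual degrees of freedom). Benjamini-Hochberg adjustment ran over these genes, with calls at an adjusted p under 0.05. An unadjusted p under 0.05 and groups without overlap were counted as descriptions. The script was tested on simulated data. Members and lists were chosen with earlier results of these data known. All members are given. Values in every library are printed for members at an unadjusted p under 0.05 or without overlap, for each family's most abundant member and its lowest p, and for the 6 pathway genes of lowest p.

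Same-numbered libraries of both groups deviated together from their group means (correlations 0.181, 0.185 and 0.161). All were above 0.1, so a fit blocked on replicate number was run as an alternative. Differently numbered libraries gave correlations of -0.217 to 0.0253. Deviations sum to 0 within each group, so these correlations are not independent of each other. The pairing comes from the data, and the labels do not state it. The values printed come from the fit without the block. From the fit blocked on that number the calls are given and, for members and all tested genes, the counts at an unadjusted p under 0.05. The comparison was repeated with each library left out, with the block, with a weight per sample, without the trend, with other pseudocounts, filters and scalings, under another rule for calls, and by limma-voom on the recovered reads. The labels name no batch. Start windows are from RefSeq (GRCm38.p6), and 50-base words and exon overlaps from GENCODE transcripts of the same build. No coordinates of GRCm39 were used.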

Additional observations from a re-analysis of the deposited data

How the results depend on the processing

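No member passed the adjusted test under 16 of the 17 alternatives run. With sample weights, which gave control 1 a weight of 6.01 and controls 2 and 3 weights of 0.326 and 0.353, 632 of all tested genes passed (5.17%), among them 2 members, Gss (0.255, adjusted p = 0.0276, limma) and Gpx8 (0.256, adjusted p = 0.0308, limma), and 1 pathway gene, Txnip (-0.256, adjusted p = 0.0276, limma), and 11 members had an unadjusted p under 0.05. Among all tested genes 3143 (25.7%) had an unadjusted p under 0.05 in that fit, so 11 members is near the background. The weighted fit rests mostly on 1 control library. Over all genes, 9 passed with a mean FPKM of at least 5, 1 with no filter, 48 with the replicate block, 44 when calls took a 1.5-fold difference and an unadjusted p under 0.05, and 0 to 66 with each library left out (66 without control 3, 2 without control 1, 2 without PS 1 and 0 without PS 2); the cause was not tested. The replicate block changed no call of a member or pathway gene, with 3 members at an unadjusted p under 0.05 and the lowest adjusted p at 0.376 (Gpx8, limma). With the block 949 of all tested genes (7.76%) had an unadjusted p under 0.05. Limma-voom on the recovered reads called 29 genes and no member. Members at an unadjusted p under 0.05 numbered 1 to 9 with each library left out (9 without control 3, and 1, Gpx8, without PS 2). The share of all tested genes at that level also moved, to 14% without control 3 and 4.43% without PS 2. With each of the other libraries left out it was 3.88% to 6.32%. Gpx8 kept an unadjusted p under 0.05 in all 16 alternatives that tested it, with log2 fold changes of 0.21 to 0.36, Gsr in 15 of 17 (-0.21 to -0.13) and Gss in 11 of 17 (0.15 to 0.27). These 3 genes were picked for a low p in the same libraries, so the alternatives give no separate evidence for them. The members' median ranged from -0.045 to 0.083 with each library left out. Of the 43 tested members 15 kept their sign in every fit. Sod2 turned negative with quantile normalization (-0.0145), with centring on the library median (-0.000316) and with sample weights (-0.057), as did Gpx4 (-0.0318), Prdx5 (-0.0119), Mgst3 (-0.0376) and Msrb1 (-0.0194) with sample weights, and Glrx5 turned positive when rescaled to a common total (0.00609). With each library left out, signs turned within -0.060 to 0.089 for Gpx4, -0.040 to 0.097 for Prdx5, -0.021 to 0.034 for Sod2, -0.086 to 0.081 for Msrb1, -0.105 to 0.049 for Glrx5, -0.170 to 0.063 for Mgst1, -0.037 to 0.048 for Mgst3, -0.092 to 0.042 for Gstm1, -0.018 to 0.043 for Txn2 and -0.051 to 0.016 for Msra. With 3 libraries per group the 95% interval of a member reached a median of 0.200 to either side, which limits the precision. Cth read 0.406 with a pseudocount of 0.1 and 0.425 by limma-voom, against 0.28.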
